A study of Sus scrofa with 96 samples.

Results

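Liver RNA was compared between pigs (Sus scrofa) fed D-xylose and pigs fed a diet without it. The comparison used 23 of the 96 libraries of a study of 24 animals in which jejunum mucosa, kidney cortex and longissimus dorsi muscle were also sampled. Control pigs ate a semi-purified ration free of xylose, and the other pigs ate that ration with 8% D-xylose. The sources used here do not give the age, sex or breed of the pigs or the length of feeding. Each count file was assigned to the sample whose title its name carries, libraries with the tissue label liver were kept, and 1 xylose library with 13418 counts was left out. This left 12 control and 11 xylose libraries, with 6 and 5 in sequencing lane 7 and 6 and 6 in lane 8. The labels do not tie libraries to animals, so p-values measure only the spread between these samples.

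D-xylose is a pentose sugar of plant cell walls. In mammals part of it passes into the polyol route, in which an aldose reductase makes xylitol, a dehydrogenase turns xylitol into D-xylulose, and xylulokinase phosphorylates D-xylulose so that it can enter the pentose phosphate pathway. The liver clears sugars that arrive in portal blood, and is also a main site of cholesterol, bile acid and plasma protein synthesis. Hepatocytes make up most of its mass, beside Kupffer cells (resident macrophages), sinusoidal endothelial cells, stellate cells and lymphocytes.

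Libraries held 1631992 to 5247616 counts in the control group and 3186638 to 6655160 in the xylose group. The summed level of 19 hepatocyte markers was 87622 to 294550 CPM (counts per 1000000 counts) in liver, against at most 16665 CPM in jejunum, 5190 CPM in kidney and 6545 CPM in muscle libraries. Under the deposited record, which links files to samples by accession, the same 23 libraries are jejunum, and 12 of the 23 have the same diet as by title. The recorded diet also coincides with the lane, so that under the record diet and lane cannot be told apart. The comparison below rests on the titles, and values under the recorded diet are given beside some of the genes.

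A set of 5 of the 23 libraries stood apart from the others, by a gap on the first principal component of all tested genes, which held 29.6% of the variance. They were control replicates 6, 7 and 8 and xylose replicates 5 and 7, at 45.3 to 83.1 on that component, while the other 18 libraries lay between -29.4 and -0.76. The hepatocyte marker sum was 87622 to 160450 CPM in the 5 libraries and 194070 to 294550 CPM in the other 18. Abundant genes such as ALB weigh most in this sum. A score with equal weight for each tested marker was the median of log2 CPM minus the gene's median. It overlapped, at -0.84 to 0.04 in the 5 libraries and -0.50 to 0.23 in the other 18. In control replicate 7 the score was 0.04, above the median of 0.0085 in the other 18. In bulk tissue, fewer cells of a type and less RNA per cell cannot be told apart. Mitochondrially encoded transcripts took 9.17% of counts in xylose replicate 5 and 5.52% in xylose replicate 7, and 2.39% to 4.86% in the other 21 libraries. Each diet group held some of these libraries, and the biological coefficient of variation was 35.8% with them and 25.2% without them. Results without the 5 libraries are therefore given beside those with all 23, a choice made after the data were seen.

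**Figure D1:**
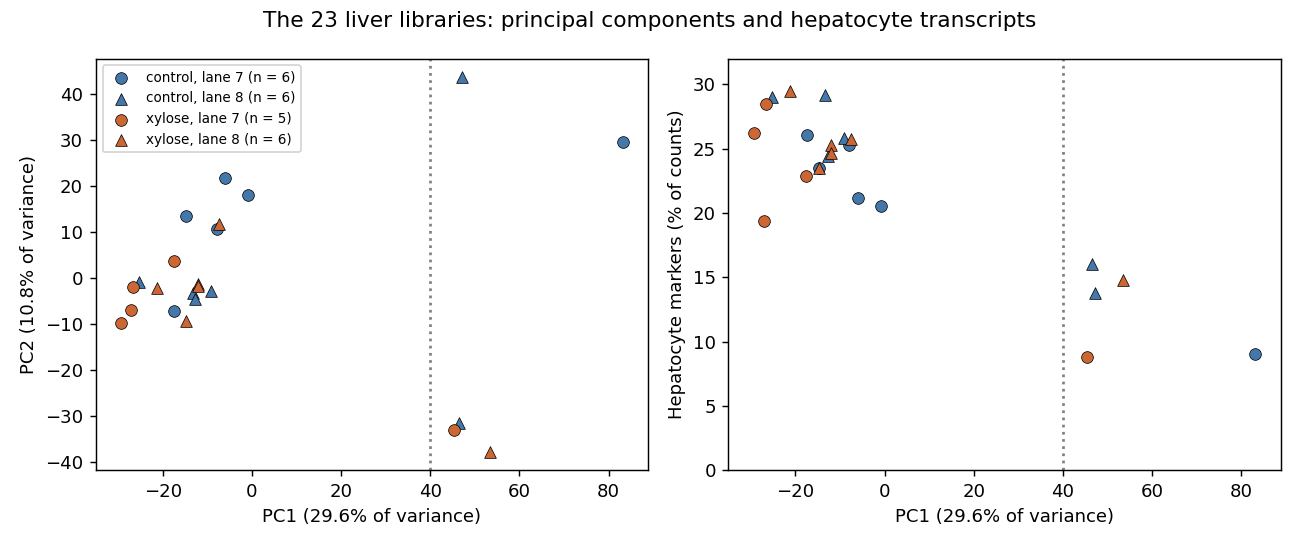
The 23 liver libraries by diet (colour) and lane (symbol), with the first principal component of log2 CPM on the x axes, the second component (left) or the share of counts in hepatocyte markers (right) on the y axes, and a dotted line at 40 on the first component. The 5 libraries to the right of the line, 3 control and 2 xylose, had the 5 lowest hepatocyte shares.

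No gene passed the threshold for diet in liver. Of 9649 genes tested, 0 (0%) had an adjusted p under 0.05 in edgeR's quasi-likelihood test with lane as a covariate, and the smallest adjusted p was 0.729. An unadjusted p under 0.05 was reached by 636 genes (6.59%), of which 325 were higher on xylose (3.37% of genes tested) and 311 lower (3.22%). DESeq2 and limma with library weights also called 0 genes, where 701 and 842 genes reached an unadjusted p under 0.05. DESeq2 came closer to the threshold than edgeR did, with a lowest adjusted p of 0.0711, and in limma this value was 0.305. The median log2 fold change over all tested genes was 0.01, and 51.9% of them were above 0. Counts of list members given below are to be read beside these 51.9% above 0, 3.37% higher and 3.22% lower. A 2-fold change in either direction was outside the 95% interval, each taken singly, for 8618 genes (89.3%). Leaving out the 5 libraries again gave 0 of 9463 genes, while 674 (7.12%) had an unadjusted p under 0.05. DESeq2 and limma also called 0 genes there, and the lowest adjusted p was 0.635 in edgeR, 0.088 in DESeq2 and 0.502 in limma. The genes and lists below are therefore described by their values, and none of the differences passed the adjusted threshold.

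The 4 enzymes of the xylose route were all detected in liver, and in each of them the levels of the 2 diet groups overlapped. Levels by diet are CPM after TMM scaling, and log2 fold changes are xylose against control with their standard error (SE). AKR1B1, an aldose reductase that can reduce xylose to xylitol, stood at a lowest, median and highest of 2.07, 4.64 and 10.4 CPM in controls, against 1.63, 3.76 and 20.1 CPM in the xylose group. The highest xylose library was replicate 7, 2 xylose libraries lay above the control range, and 8 of 11 xylose libraries lay below the control median. This gave a log2 fold change of 0.01 ± 0.36, with a 95% interval from -0.73 to 0.76, and -0.28 without the 5 libraries.

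SORD, the sorbitol dehydrogenase that also oxidises xylitol, stood at 1234, 1641 and 1919 CPM without xylose and 1260, 1625 and 1875 CPM with it. No xylose library lay outside the control range. The fitted log2 fold change was -0.03 ± 0.11, with an interval from -0.26 to 0.19, the narrowest of the 4 enzymes. DCXR, the reductase that links L-xylulose and xylitol, stood at 7.51, 14.8 and 26.7 CPM in control libraries and 5.83, 14.1 and 26.4 CPM on xylose (log2 fold change -0.09 ± 0.23, interval -0.56 to 0.39). Both groups spanned nearly the same range.

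XYLB, xylulokinase, stood at 42.1, 73.0 and 178 CPM in controls, against 33.4, 66.3 and 131 CPM in the xylose group. The highest level in each group was in a library that stood apart, and 6 of 11 xylose libraries lay below the control median. The log2 fold change was -0.01 ± 0.20, with an interval from -0.43 to 0.41, and -0.35 in lane 7 against 0.30 in lane 8. With diet by title, a 2-fold difference in either direction lay outside the interval for all of SORD, DCXR, XYLB and AKR1B1. Under the recorded diet, which coincides with the lane, AKR1B1 had 0.84 ± 0.35 (unadjusted p = 0.0228 in edgeR). XYLB then had -0.70 ± 0.20 (unadjusted p = 0.0015 in edgeR), SORD -0.07 ± 0.11 and DCXR 0.11 ± 0.23. None of these passed the adjusted threshold.

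**Figure D2:**
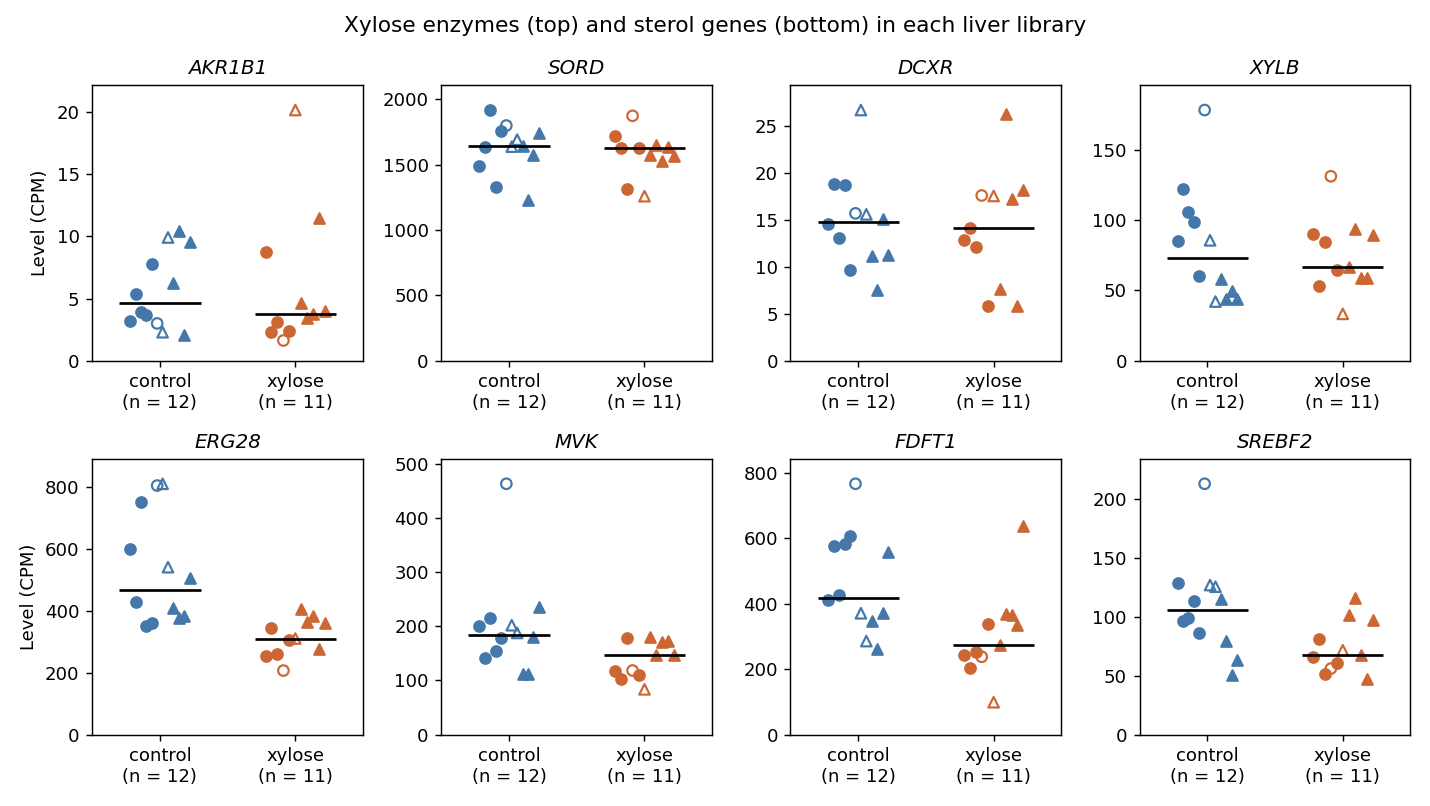
Level in CPM (y axis, linear, from 0) of 8 genes in each of the 12 control (blue) and 11 xylose (orange) liver libraries, with circles for lane 7, triangles for lane 8, open symbols for the 5 libraries that stood apart and a bar at the group median. The xylose enzymes (top) overlap between diets, while all 11 xylose libraries lie below the control median for ERG28 and MVK (bottom).

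Around this route, 15 genes of xylose, polyol and glucuronate metabolism were tested, and 4 had a log2 fold change above 0 (median -0.07), with 0 at an unadjusted p under 0.05 in either direction. SHPK, which phosphorylates sedoheptulose, and AKR1A1, an aldehyde reductase of the glucuronate route, each had a log2 fold change of -0.27 ± 0.18, which was -0.15 and -0.0058 without the 5 libraries.

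Of 7 pentose phosphate genes, 2 were above 0 and 1 was lower at an unadjusted p under 0.05. This was TKT, transketolase, which takes up the phosphate of D-xylulose, at 69.3, 89.5 and 238 CPM in control libraries and 65.4, 78.2 and 172 CPM on xylose (log2 fold change -0.44 ± 0.21, unadjusted p = 0.0446). In 9 of 11 xylose libraries it lay below the control median, and without the 5 libraries the log2 fold change was -0.23.

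Of 7 monosaccharide transporters that could be tested, 4 were above 0 (median 0.12) and 1 was higher at an unadjusted p under 0.05. SLC2A2 encodes GLUT2, the main sugar transporter of the hepatocyte, and stood at 100, 225 and 313 CPM in controls, against 209, 290 and 379 CPM in the xylose group. Every xylose library lay at 209 CPM or more, and 5 of them above the highest control library. This gave a log2 fold change of 0.33 ± 0.16 (unadjusted p = 0.0427), 0.50 in lane 7, 0.17 in lane 8 and 0.19 without the 5 libraries. SLC2A10, another facilitative transporter, had a log2 fold change of -0.48 ± 0.28, and SLC5A1, the sodium-coupled glucose transporter SGLT1, of 0.14 ± 0.19.

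Glycolysis and gluconeogenesis genes were spread on both sides of 0. In glycolysis and carbohydrate response 8 of 19 were above 0 (median -0.04), and PFKL, the liver phosphofructokinase, ENO1, an enolase, and GPI, which interconverts glucose and fructose phosphates, had log2 fold changes of -0.44 ± 0.22, -0.28 ± 0.14 and -0.28 ± 0.15. In gluconeogenesis 9 of 15 were above 0 (median 0.10), with MDH2, the mitochondrial malate dehydrogenase, higher and PCK2, the mitochondrial phosphoenolpyruvate carboxykinase, lower at an unadjusted p under 0.05 (0.52 ± 0.22 and -0.32 ± 0.15). Glycogen metabolism had 5 of 10 genes above 0, with a median of 0.04.

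Genes of cholesterol synthesis and uptake had the lowest median of the 37 lists with 5 or more tested members. Hepatocytes make cholesterol from acetyl-CoA through mevalonate, squalene and lanosterol. When membrane sterol is low, SCAP carries SREBP2, the product of SREBF2, to the Golgi, where it is cleaved into a transcription factor for most genes of the route. Of 24 tested members 3 had a log2 fold change above 0, against 51.9% of all genes tested, the median was -0.35, and 0 were higher and 5 lower at an unadjusted p under 0.05. Without the 5 libraries 4 of 24 were above 0 and the median was -0.22, above that of the cell cycle list (-0.31). The median was -0.42 in lane 7, -0.16 in lane 8, where 2 other lists lay lower, and -0.02 under the recorded diet. Control replicate 12 moved the median most, which was -0.18 without it. The list was already known to be low on xylose in these libraries, so its direction is no independent evidence.

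Of the regulators, SREBF2 stood at 50.6, 106 and 213 CPM without xylose and 47.4, 67.5 and 116 CPM with it. Only 1 of 11 xylose libraries lay above the control median, and the highest control library was replicate 6, one of those that stood apart. The fitted log2 fold change was -0.54 ± 0.20 (unadjusted p = 0.0126), -0.96 in lane 7, -0.17 in lane 8 and -0.28 without the 5 libraries. SCAP had a log2 fold change of -0.19 ± 0.14, and INSIG1, which holds SCAP in the endoplasmic reticulum, of -0.07 ± 0.37.

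In the mevalonate steps, HMGCS1, HMG-CoA synthase, had a log2 fold change of -0.36 ± 0.40. MVK, mevalonate kinase, stood at 111, 184 and 463 CPM in control libraries and 83.5, 147 and 180 CPM on xylose. All 11 xylose libraries lay below the control median, and 3 below the lowest control library. The log2 fold change of MVK was -0.50 ± 0.20 (unadjusted p = 0.0201), and -0.23 without the 5 libraries. ACAT2, the acetyl-CoA acetyltransferase at the start of the route, was near the detection limit at a median of 2.31 CPM in control (0.09 ± 0.44). MVD and IDI1, which make the isoprene units, stood at -0.34 ± 0.30 and -0.41 ± 0.40.

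FDFT1, squalene synthase, the first enzyme committed to sterols, stood at 261, 418 and 766 CPM in controls, against 98.8, 275 and 636 CPM in the xylose group. On xylose, 10 of 11 lay below the control median and 5 below the lowest control library, with replicate 7 lowest. The log2 fold change was -0.58 ± 0.23 (unadjusted p = 0.0186), -1.15 in lane 7, -0.08 in lane 8 and -0.49 without the 5 libraries. SQLE, squalene epoxidase, had -0.36 ± 0.33, and LSS, which closes the lanosterol ring, had -0.03 ± 0.15. The interval of LSS ran from -0.33 to 0.28.

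Among the steps after lanosterol, ERG28 had the smallest p. ERG28 encodes a protein of the endoplasmic reticulum known in yeast as a scaffold for the enzymes that remove methyl groups from sterols. It stood at 351, 469 and 811 CPM without xylose and 207, 311 and 406 CPM with it. All 11 xylose libraries lay below the control median, 7 of them below the lowest control library, and the ranges overlapped between 351 and 406 CPM. This gave a log2 fold change of -0.75 ± 0.17 (unadjusted p = 0.000161, adjusted p = 0.729 in edgeR), the smallest p among named genes lower on xylose. It was -1.01 in lane 7, -0.53 in lane 8, -0.51 without the 5 libraries and 0.01 under the recorded diet.

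Around it, CYP51A1, MSMO1 and NSDHL, which act in turn on lanosterol and its products, had log2 fold changes of -0.11 ± 0.26, -0.14 ± 0.32 and -0.13 ± 0.20, and HSD17B7, the last of that group, had -0.38 ± 0.24. TM7SF2, a sterol reductase, had -0.09 ± 0.36. EBP, the sterol isomerase, stood at 64.5, 103.3 and 150 CPM in control libraries and 42.4, 74.1 and 159 CPM on xylose (-0.41 ± 0.19, unadjusted p = 0.0401). The xylose group held both the lowest and the highest EBP library. SC5D and DHCR7, which finish the ring, had 0.03 ± 0.26 and -0.17 ± 0.22. STARD4, a sterol carrier, had 0.07 ± 0.19.

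**Figure D3:**
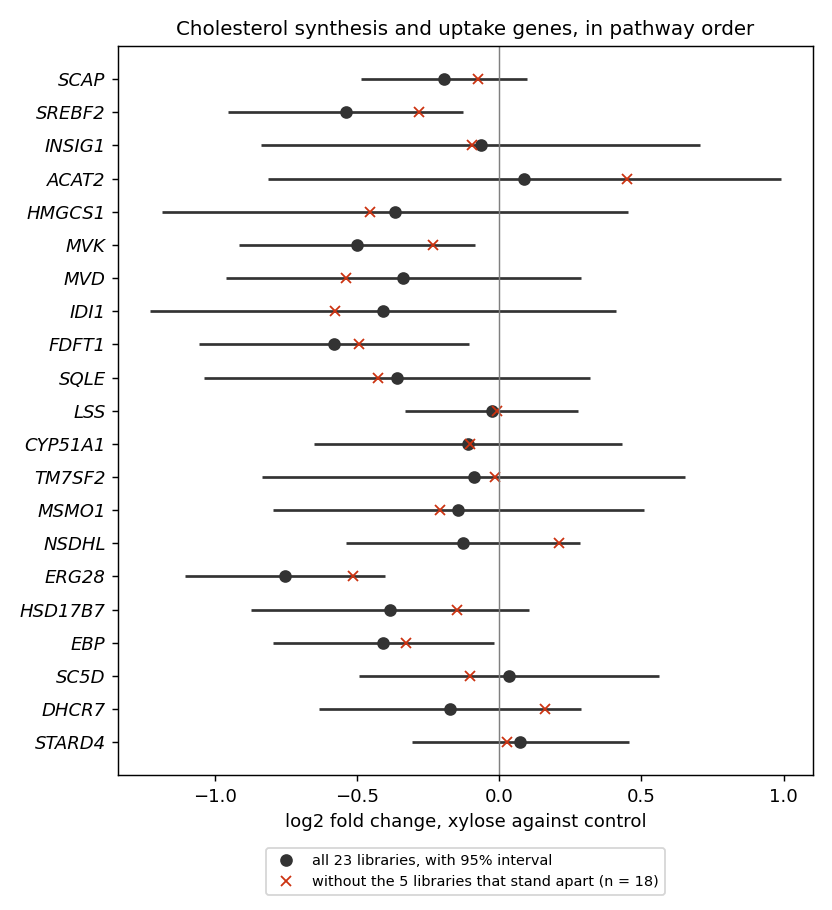
Log2 fold change, xylose against control (x axis), of 21 of the 24 tested cholesterol genes in pathway order, with dots and 95% intervals from all 23 libraries and crosses from the 18 that remain without the 5 that stood apart. Of the dots, 18 lie below 0, and the intervals of ERG28, SREBF2, FDFT1, MVK and EBP lie wholly below 0 before adjustment over genes.

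In fatty acid and triglyceride synthesis 7 of 16 genes were above 0 (median -0.14), with 0 higher and 2 lower at an unadjusted p under 0.05. Both are desaturases of polyunsaturated fatty acids. FADS2 stood at 150, 293 and 536 CPM without xylose and 56.9, 178 and 498 CPM with it. Of the xylose libraries, 9 lay below the control median and 5 below the lowest control library. The fitted log2 fold change was -0.75 ± 0.25 (unadjusted p = 0.00524), -0.54 in lane 8 and -0.74 without the 5 libraries, and under the recorded diet it was 0.66. FADS1 was far more variable, at 19.2, 137 and 867 CPM in control libraries and 7.67, 56.9 and 338 CPM on xylose (-1.20 ± 0.53, and -0.68 without the 5 libraries). LPIN2, a phosphatidate phosphatase of triglyceride synthesis, had a log2 fold change of 0.35 ± 0.19. Without control replicate 3 the median of the list was -0.00080.

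Fatty acid oxidation and ketogenesis had 10 of 22 genes above 0 (median -0.01). The 2 members at an unadjusted p under 0.05 were lower: ACAA2, the mitochondrial thiolase, and ACADS, the short-chain acyl-CoA dehydrogenase, at -0.56 ± 0.20 and -0.44 ± 0.16. ACADS stood at 243, 325 and 816 CPM in controls, against 233, 291 and 314 CPM in the xylose group. All 11 xylose libraries lay below the control median, within a range much narrower than that of the controls. With the 5 libraries left out, the values of ACAA2 and ACADS were -0.27 and -0.20.

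Cholesterol also leaves the liver as bile acids or directly into bile. Of 17 genes of bile acid synthesis and transport 8 were above 0 (median 0.00), and 1 was higher and 2 lower at an unadjusted p under 0.05. CYP7B1, the oxysterol hydroxylase of the acidic pathway, had a log2 fold change of -0.45 ± 0.18, and -0.21 without the 5 libraries. NR0B2, the repressor SHP that bile acids induce through FXR, stood at 71.0, 199 and 296 CPM without xylose and 76.4, 113 and 205 CPM with it (-0.57 ± 0.23, and -0.40 without the 5 libraries). Among xylose libraries, 10 of 11 lay below the control median, but none below the lowest control library. ABCG5 and ABCG8, the paired transporters that export sterols into bile, had log2 fold changes of 0.58 ± 0.27 and 0.35 ± 0.19. Without the 5 libraries these were 0.50 and 0.49. APOA1, the main protein of HDL, had the smallest p among lipoprotein genes, with a log2 fold change of -0.37 ± 0.18, and 6 of 14 genes of that list were above 0.

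Markers of other liver cells were examined beside these values. The summed level of 10 endothelial markers had a median of 480 CPM in control libraries and 463 CPM on xylose, with ranges of 379 to 713 and 267 to 619 CPM, and none of them was at 0 in all libraries. Of 8 tested, 2 were above 0 and 2 were lower at an unadjusted p under 0.05. STAB1, a scavenger receptor of sinusoidal endothelium, stood at 8.75, 11.8 and 29.8 CPM in controls, against 4.60, 6.57 and 14.7 CPM in the xylose group. On xylose, 7 lay below the lowest control library. The diet log2 fold change of STAB1 was -0.79 ± 0.23, -1.36 in lane 7, -0.31 in lane 8 and -0.58 without the 5 libraries. CLEC4G, a lectin of the same cells, had -0.47 ± 0.19 (-0.12 in lane 8), while LYVE1, their hyaluronan receptor, had 0.42 ± 0.23. The median of the list was -0.29 in lane 7 and -0.08 in lane 8. CD93 and VASH1, outside this list, had been picked for a small p and were placed here after their values were seen. CD93, a glycoprotein of endothelial and myeloid cells, stood at 36.4, 49.0 and 74.7 CPM without xylose and 25.4, 38.1 and 50.3 CPM with it. Its log2 fold change was -0.54 ± 0.15 (unadjusted p = 0.00162 in edgeR), -0.87 in lane 7 and -0.25 in lane 8. VASH1, which endothelial cells secrete, had levels of 2.29, 3.09 and 7.86 CPM in control against 0.77, 1.80 and 3.33 CPM on xylose, with 8 of 11 xylose libraries below the control range. Whether the share of endothelial RNA bears on these values was not tested.

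Macrophage and Kupffer cell markers had 3 of 15 genes above 0 and a median of -0.21, with 0 at an unadjusted p under 0.05. Their summed level was 1104 to 2438 CPM in control and 940 to 2259 CPM in xylose libraries. CD14, the lipopolysaccharide co-receptor, stood at 364, 481 and 846 CPM in control libraries and 230, 454 and 522 CPM on xylose. For CD14 the log2 fold change was -0.31 ± 0.16, and -0.05 without the 5 libraries, and that of AIF1, a macrophage calcium-binding protein, was -0.29 ± 0.19 and -0.12. Over the list the median without the 5 libraries was -0.05.

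The T and NK cell list had 3 of 11 genes above 0, and NKG7, a granule protein, and CCL5, a chemokine, had log2 fold changes of -0.54 ± 0.26 and -0.65 ± 0.34. Without the 5 libraries these were -0.34 and -0.19, and 6 of 11 genes were above 0. GZMA, a granzyme near the detection limit at a control median of 1.63 CPM, had 0.58 ± 0.42. JCHAIN, the joining chain of polymeric immunoglobulins, was one of 2 plasma cell genes tested and had 0.60 ± 0.26. Neutrophil markers were too low to be tested, and MPO was at 0 in every liver library. VIM, vimentin, a filament protein of stellate and other mesenchymal cells, stood at 25.7, 45.5 and 68.3 CPM in controls, against 39.7, 68.7 and 95.8 CPM in the xylose group. Of the xylose libraries, 6 lay above the highest control library. The log2 fold change was 0.57 ± 0.17, and 0.31 without the 5 libraries, while 4 of 11 genes of the stellate cell list were above 0.

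Red cell transcripts, which come with the blood left in the tissue, were lower at the median on xylose. None of the 4 tested members was above 0 (median -0.82), against 51.9% of all tested genes. At an unadjusted p under 0.05, 3 were lower, against 3.22% of all tested genes. ALAS2, the first enzyme of heme synthesis in red cells, had a log2 fold change of -0.95 ± 0.39, HBM, a globin, of -1.05 ± 0.44, and EPB42, a membrane skeleton protein, of -0.69 ± 0.27. HBB, beta-globin, stood at 236, 451 and 1259 CPM without xylose and 50.9, 270 and 1122 CPM with it (-0.50 ± 0.37). The groups overlapped over most of this range. The median of the list was -1.66 in lane 7 and -0.15 in lane 8, and -0.42 without the 5 libraries over the 3 members then tested.

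The next genes had the smallest p in each direction, of those with a symbol and 1 CPM or more on average in either group. Among the higher ones was XIAP, which inhibits caspases. XIAP stood at 17.8, 27.0 and 37.6 CPM in control libraries and 26.8, 47.2 and 58.1 CPM on xylose. Among xylose libraries, 10 of 11 lay above the control median and 7 above the highest control library. This gave a log2 fold change of 0.66 ± 0.15 (unadjusted p = 0.000143, adjusted p = 0.729 in edgeR), 0.99 in lane 7, 0.34 in lane 8 and 0.64 without the 5 libraries, and -0.16 under the recorded diet. SMAD4, the shared partner of TGF-beta and BMP signalling, had 0.45 ± 0.12, and TIA1, an RNA-binding protein of stress granules, 0.86 ± 0.24. For TIA1 this was 0.50 without xylose replicate 5 and 0.55 without the 5 libraries. KCTD6 and TEX30 had 0.61 ± 0.16 and 0.86 ± 0.24. UBE2QL1 (1.87 ± 0.50) and MIS18A (1.16 ± 0.30), a centromere protein, were near the detection limit, at control medians of 0.92 and 1.17 CPM.

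Among the lower genes, VAC14, the scaffold of the lipid kinase that makes PI(3,5)P2, stood at 4.06, 6.78 and 8.66 CPM in controls, against 2.06, 3.39 and 5.63 CPM in the xylose group. All 11 xylose libraries lay below the control median and 8 below the lowest control library. The fitted log2 fold change was -0.79 ± 0.20, and -0.88 without the 5 libraries. HYI, a hydroxypyruvate isomerase, stood at 116, 270 and 386 CPM without xylose and 89.8, 169 and 250 CPM with it (-0.66 ± 0.19). LRATD1 had -1.08 ± 0.27, and RUNX3, a transcription factor of lymphocytes, had -0.73 ± 0.21. Of these 16 genes, 14 could be fitted in each lane alone, and all 14 had the same sign in both lanes, as genes chosen for a small p over both lanes would tend to, with a larger difference in lane 7 for 12 of them.

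**Figure D4:**
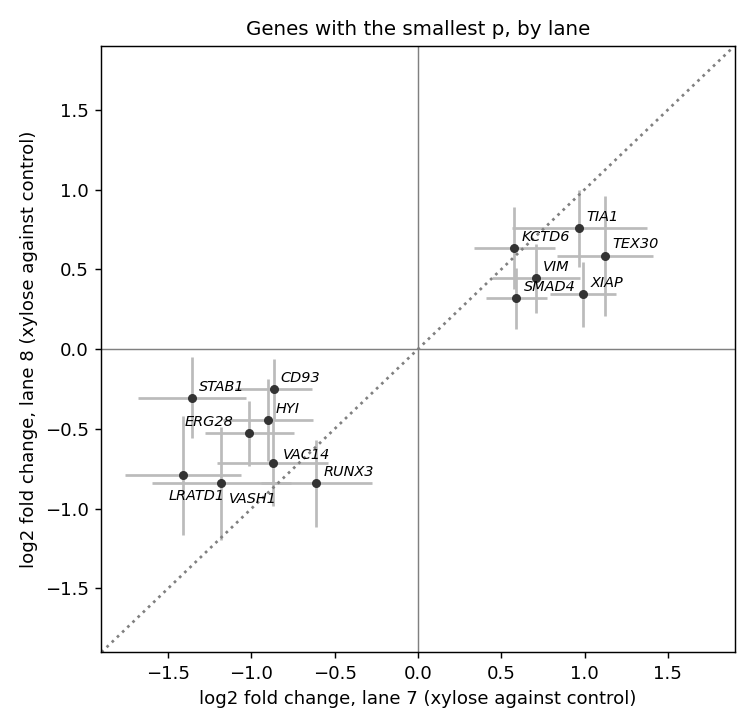
Log2 fold change, xylose against control, in lane 7 (x axis) and lane 8 (y axis) for the 14 named genes with the smallest p that could be fitted in both lanes, with bars of 1 SE and a dotted line of equality. The genes lie in 2 opposite corners, and 12 of the 14 lie farther from 0 in lane 7.

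Among hepatocyte functions apart from lipid metabolism, the 18 tested hepatocyte markers had a median of -0.03, and ALB, albumin, stood at 11505, 136480 and 205730 CPM in control libraries and 19199, 145490 and 201000 CPM on xylose (0.08 ± 0.37). Of 11 genes of periportal hepatocytes, the cells nearest the incoming blood, 10 were above 0, against 51.9% of all tested genes. Their median was 0.33, the highest of the 37 lists, with 0 at an unadjusted p under 0.05. CPS1, the first enzyme of the urea cycle, had 0.45 ± 0.22, ARG1, arginase, 0.50 ± 0.33, and TAT, the tyrosine aminotransferase, 0.66 ± 0.42. Without the 5 libraries 8 of the 11 were above 0 and the median was 0.31. Without xylose replicate 6 it was 0.22. The score per library, the median over these genes of log2 CPM minus the gene's median, differed little at the group medians. It was -0.57, -0.09 and 0.21 in controls and -0.83, -0.07 and 0.77 on xylose (lowest, median and highest). The lists share genes: TAT is also in the hepatocyte marker and gluconeogenesis lists, and CPS1 in the hepatocyte marker and urea cycle lists. Pericentral genes had 7 of 9 above 0, with a median of 0.10. Amino acid catabolism had 15 of 23 genes above 0 (median 0.10), with CTH, the cystathionine lyase that makes cysteine, at 0.68 ± 0.35, and urea cycle genes had 6 of 9 (median 0.07).

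For defence and stress genes, 20 of 28 interferon-stimulated genes were above 0 (median 0.15) and 0 had an unadjusted p under 0.05. Of 14 acute phase genes 7 were above 0, with LBP, the lipopolysaccharide-binding protein, at 43.5, 112 and 134 CPM in controls, against 31.4, 129 and 624 CPM in the xylose group (0.80 ± 0.35, and 0.84 without the 5 libraries). Only 4 xylose libraries lay above the control range. CRP, C-reactive protein, was spread over more than an order of magnitude in both groups, from 291 to 6881 CPM and from 167 to 11254 CPM (0.62 ± 0.49). In the NRF2 antioxidant response 10 of 14 genes were above 0 (median 0.18). NFE2L2, which encodes NRF2, stood at 22.7, 46.5 and 87.1 CPM without xylose and 42.3, 67.3 and 100 CPM with it (0.46 ± 0.18, unadjusted p = 0.0144, and 0.41 without the 5 libraries). On xylose, 10 of 11 lay above the control median. In the endoplasmic reticulum stress list 13 of 20 were above 0, with EDEM1 and DNAJC3, which handle misfolded proteins, at 0.37 ± 0.19 and 0.34 ± 0.17, HSPA5, the chaperone BiP, at -0.48 ± 0.27 (-0.20 without the 5 libraries) and SESN2, sestrin 2, at -0.32 ± 0.15.

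In drug metabolism 7 of 14 genes were above 0. AHR, the receptor that induces many cytochrome P450 genes, had 0.53 ± 0.25, and CYP2A19, a porcine P450 of skatole breakdown, had -0.51 ± 0.25. In iron handling, ACO1, the iron regulatory protein, was higher, and HFE and HJV, which raise hepcidin, were lower, each at an unadjusted p under 0.05 (0.59 ± 0.23, -0.53 ± 0.20 and -0.34 ± 0.16). In the respiratory chain, 22 of 35 nuclear genes were above 0 (median 0.07), and NDUFB5 and NDUFB10, both subunits of complex I, had values of opposite sign (0.68 ± 0.33 and -0.36 ± 0.14). Mitochondrially encoded transcripts had 11 of 12 members above 0 (median 0.14), against 51.9% of all tested genes. At an unadjusted p under 0.05, 3 of them were higher, against 3.37% of all tested genes. These 3, ND4L, CYTB and COX1, had log2 fold changes of 0.62 ± 0.20, 0.40 ± 0.15 and 0.38 ± 0.16. With the 5 libraries left out, of which xylose replicates 5 and 7 had the highest mitochondrial shares, 6 of 12 were above 0 and the median was -0.04. Without xylose replicate 5 alone it was 0.072.

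**Figure D5:**
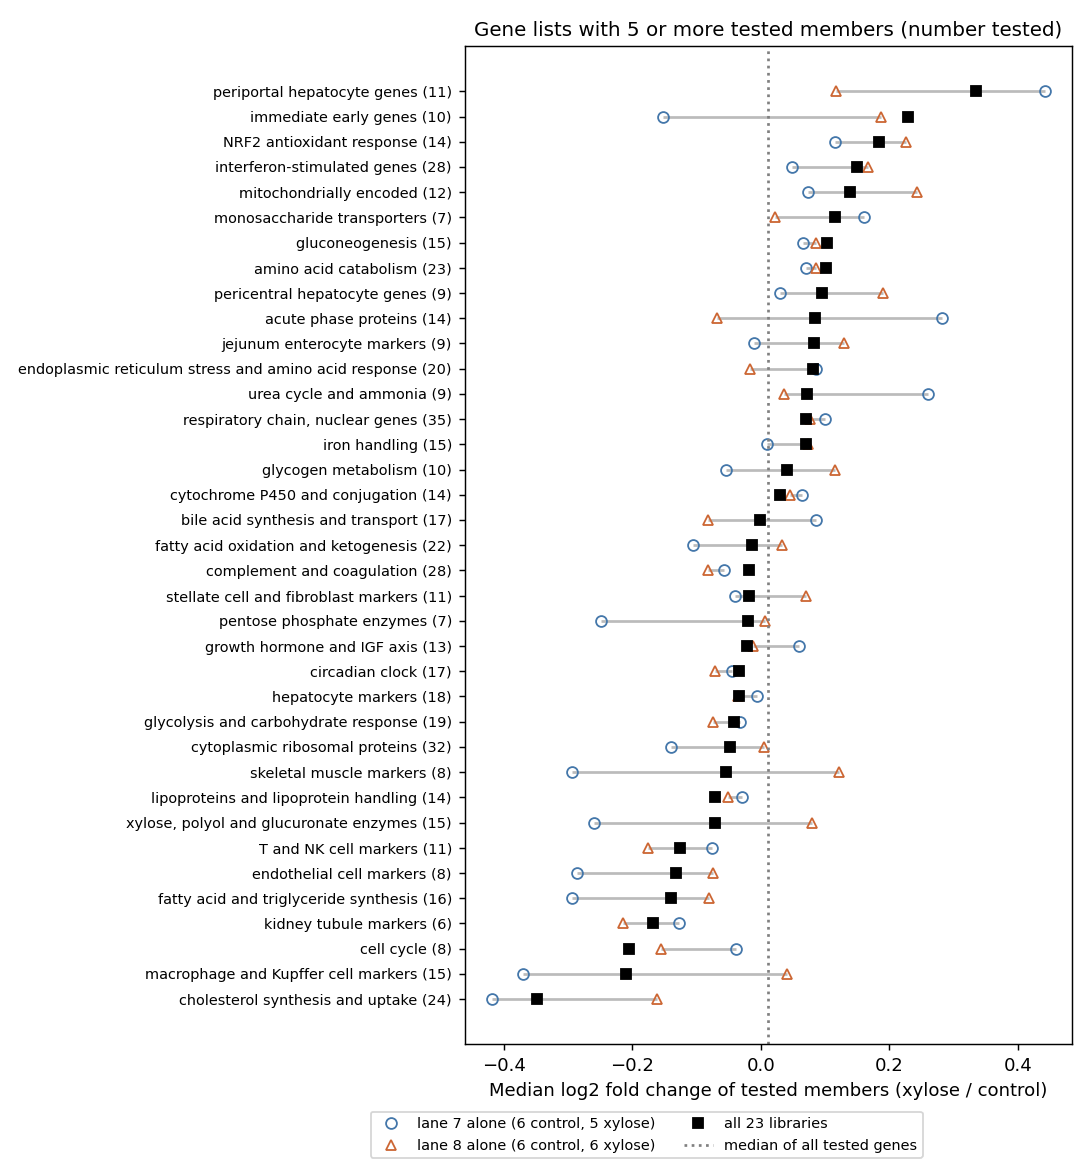
Median log2 fold change of the tested members (x axis) of the 37 gene lists with 5 or more tested members, from all 23 libraries (squares), lane 7 alone (circles) and lane 8 alone (triangles), with the number tested in parentheses and a dotted line at 0.01, the median of all genes. Cholesterol genes lie lowest and periportal genes highest with all 23 libraries and in lane 7, but not in lane 8, and in 23 of the 37 lists the 2 lanes have the same sign.

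Each lane holds both diets, so each gives its own comparison with no library in common. In lane 7, 748 of 9300 genes (8.04%) had an unadjusted p under 0.05, and in lane 8, 99 of 9013 (1.1%), with 0 called in either. Across 8909 genes fitted in both lanes, which are not independent replicates, the log2 fold changes of the 2 lanes had a Pearson r of 0.238 and a Spearman rho of 0.289, and 61.4% had the same sign. A difference of the diet effect between lanes was found for 0 of 9934 genes (0%) in edgeR, with 229 (2.31%) at an unadjusted p under 0.05, and for 0 with DESeq2 and limma.

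The lane itself was tested in the same model. By their titles, all liver libraries of lane 7 come from plate row C and all those of lane 8 from row G. The lanes also hold different samples, so lane, plate row and set of samples cannot be told apart here. One gene of 9649 (0.0104%) passed, and 763 (7.91%) had an unadjusted p under 0.05. TCAP, telethonin of the muscle sarcomere, stood at 4.40, 6.57 and 18.4 CPM in lane 7 and at 9.93, 18.9 and 26.6 CPM in lane 8 (log2 fold change 1.28 ± 0.22, adjusted p = 0.0424). MYOM2, another sarcomere gene, ANKRD1, a muscle stress protein, and RBP2, the retinol carrier of enterocytes, followed with MFGE8 and CLTC at 0.88 to 1.12, and none of these passed. CRP stood at 278, 908 and 11254 CPM in lane 7 and at 167, 479 and 1105 CPM in lane 8 (-2.21 ± 0.51). The summed level of skeletal muscle markers, of which none was at 0 in all libraries, had a median of 1423 CPM in lane 7 and 1705 CPM in lane 8, with ranges of 1225 to 3764 and 1332 to 2933 CPM. The part of these markers in the lane difference was not tested. Without the 5 libraries 21 of 9463 genes (0.222%) passed for lane, and leaving out single libraries gave 0 to 10.

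Whether the diet difference in liver was unlike that in the other tissues was tested over 90 libraries, 67 of them from jejunum, kidney and muscle. The animals are shared between tissues, and the fit treated libraries as independent because no label ties them to an animal. Of 12652 genes, 0 (0%) passed in edgeR, the smallest adjusted p was 0.29, and 782 (6.18%) had an unadjusted p under 0.05. CEND1 and CNKSR2, both mainly known from neurons, had the smallest p among named genes, with a liver log2 fold change above that of the other tissues by 3.06 ± 0.72 and 2.01 ± 0.50. LRATD1 and EIF2B4, a subunit of a translation initiation factor, lay below by -1.08 ± 0.29 and -0.64 ± 0.17.

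For some liver genes the spread among libraries of the same diet and lane was wide. Among genes of 20 CPM or more, PON3, a lactonase of HDL, and NNMT, which methylates nicotinamide, had residual SDs of 2.22 and 2.02 on the log2 scale. PON3 stood at 6.51, 73.0 and 344 CPM in control libraries and 3.87, 20.8 and 441 CPM on xylose, and NNMT at 3.45, 27.3 and 196 CPM and 1.63, 21.7 and 502 CPM. The groups overlapped for both genes, 1 xylose library lay above the control range for PON3 and 2 for NNMT, and the log2 fold changes were -0.07 ± 0.72 and 1.11 ± 0.68. The median residual SD over all tested genes was 0.49.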

How the data were processed

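QuantSeq libraries, in which each read comes from the 3' end of a polyadenylated transcript, were made from total RNA, per the labels' protocols. Raw read counts for each gene were deposited, with 25880 Ensembl identifiers, and 14857 of these had a symbol in the table used. Per the submitters' processing notes, the tools were STAR and featureCounts, with no versions or roles. Genome build, strand setting and the handling of multimapping reads are not given in the sources, so counts of paralogs, overlapping and antisense genes are uncertain and no coordinates are given. Reads carry no molecular identifiers.

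File names carry sample titles, and 90 of 96 differ from the recorded sample. Files were assigned by title. Diet was tested with edgeR 4.0.16 in R 4.3.3 (quasi-likelihood F test, TMM, filterByExpr, terms for diet and lane), with p-values adjusted by Benjamini-Hochberg and called under 0.05. DESeq2 1.42.0 and limma 3.58.1 were alternatives. All p-values for genes come from edgeR unless another tool is named. Levels by diet are CPM, counts per 1000000 with TMM-scaled totals, and marker sums use all genes. The script was tested on simulated data. Each of the 253 pairs of libraries differed by more than sampling noise (chi-square over its degrees of freedom at least 7.86).

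The comparison, the 41 gene lists and the alternatives were chosen with earlier results of these data known. Named genes were the 4 xylose enzymes, the 8 with the smallest p in each direction, up to 4 per list by p, all tested cholesterol genes, and the most abundant and most variable ones. Of these, some are described and the others counted, and a few are not reported here. CD93 and VASH1 were placed beside the endothelial list after their values were seen.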

Additional observations from a re-analysis of the deposited data

Results flagged for a closer look

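The liver library left out of the comparison, xylose replicate 3 with 13418 counts, held some transcripts at a higher share than any control library. Skeletal muscle markers took 2.82% of its counts (378 counts, 95% Wilson interval 2.55% to 3.11%), against 0.122% to 0.376% in the 12 controls. Mitochondrially encoded transcripts took 5.48% (5.11% to 5.88%), against 2.76% to 4.24% in controls, but 9.17% in the highest of the 23 liver libraries, a xylose one. Jejunum enterocyte markers took 0.149% (20 counts, 0.0965% to 0.23%) and kidney tubule markers 0.104% (14 counts, 0.0622% to 0.175%), against at most 0.041% and 0.0275% in controls. Cholangiocyte markers took 0.0149% (2 counts, 0.00409% to 0.0543%), against at most 0.00392% in controls. The highest cholangiocyte share of the 23 liver libraries, 0.00463%, lay within that interval. Hepatocyte markers took 17.6% of its counts, within the control range of 9.07% to 29.2%. The intervals cover counting error only. The source of these transcripts was not tested.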

How the results depend on the processing

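The count of genes called for diet was 0 in all settings tried by title, with 405 genes at an unadjusted p under 0.05 without control replicate 6, 438 without control replicate 7 and 841 without xylose replicate 7, and 99 in lane 8 alone. Under the recorded diet it was 1 (TCAP), where diet and lane cannot be told apart. For lane it was 11 with DESeq2 and 51 with limma, and without the 5 libraries that stood apart 21, 191 with DESeq2 and 89 with limma; single libraries left out gave 0 to 10 (10 without control replicate 3). No difference of the diet effect, between lanes or between liver and the other tissues, was called in any setting. Without the 5 libraries, 705 genes had an unadjusted p under 0.05 for the difference of the diet effect between lanes. Leaving out 1 library moved the median by over 1.5 times in 36 of 37 gene lists and turned its sign in 15. Diet in liver has no pairs, since replicate numbers only name libraries. Across tissues the titles place one library of each tissue, all of one diet, in each of 24 plate columns within a lane, though no label says that a column is an animal. Deviations of liver and of another tissue in the same column correlated over 0.1 in 6 of 18 pairs for jejunum, 14 of 23 for kidney and 11 of 23 for muscle. Of the liver libraries in these pairs, 11, 10 and 12 correlated best with their own column among those of their lane and diet. The counts that unmatched columns would give were not computed, so whether a column is an animal was not tested. With the column as a replicate block, an alternative chosen after the data were seen, liver against the other tissues again gave 0 calls, with 798 genes at an unadjusted p under 0.05 and a smallest adjusted p of 0.112 in edgeR. Depth limits genes of a few CPM, which rest on few reads.

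None of the 97 genes whose diet values are printed passed for diet in any setting, and 83 kept their sign whichever library was left out. The other ranges of the log2 fold change were -0.32 to 0.13 for AKR1B1, -0.20 to 0.030 for DCXR, -0.095 to 0.093 for XYLB, -0.090 to 0.044 for LSS, -0.41 to 0.11 for INSIG1, -0.22 to 0.27 for ACAT2, -0.26 to 0.025 for CYP51A1, -0.33 to 0.087 for TM7SF2, -0.27 to 0.047 for MSMO1, -0.20 to 0.025 for NSDHL, -0.072 to 0.15 for SC5D, -0.043 to 0.15 for STARD4, -0.62 to 0.39 for PON3 and -0.040 to 0.19 for ALB.

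The sign of a log2 fold change turned in the following, and the cause was not tested. The fit by recorded diet has no lane term and compares the libraries of lane 8 with those of lane 7. Signs that turned there are therefore no measure of how stable the values by title are. Under the recorded diet the sign turned for 52 of 93, to 0.11 for DCXR, 0.068 for AKR1A1, 0.061 for SHPK, 0.13 for TKT, -0.20 for SLC2A2, 0.010 for ERG28, 0.075 for SCAP, 0.022 for EBP, 0.13 for SQLE, 0.17 for IDI1, 0.030 for LSS, 0.66 for FADS2, 0.64 for FADS1, 0.27 for ACAA2, 0.017 for CYP7B1, -0.67 for ABCG5, -0.13 for ABCG8, 0.34 for APOA1, 0.23 for ENO1, 0.44 for GPI, -0.35 for CTH, -0.54 for AHR, 0.20 for CYP2A19, -0.81 for LBP, -2.27 for CRP, -0.28 for NFE2L2, 0.092 for SESN2, 0.13 for CD93, 0.033 for CLEC4G, -0.030 for LYVE1, 0.15 for VASH1, 0.090 for CD14, 0.093 for NKG7, 0.48 for CCL5, -0.31 for JCHAIN, -0.16 for XIAP, -0.35 for SMAD4, -0.38 for TIA1, -0.15 for TEX30, 0.23 for LRATD1, 0.10 for RUNX3, 0.027 for CYP51A1, 0.21 for TM7SF2, 0.27 for MSMO1, 0.12 for NSDHL, -0.25 for STARD4, -0.0073 for CYTB, -0.13 for ND4L, -0.11 for ACO1, -0.32 for NDUFB5, -1.75 for NNMT and -0.060 for DNAJC3. In lane 8 alone it was 0.080 for DCXR, 0.30 for XYLB, 0.0082 for HMGCS1, 0.029 for CYP2A19, 0.14 for HBB, 0.010 for AIF1, 0.23 for INSIG1, 0.040 for CYP51A1, 0.017 for MSMO1, -0.014 for DNAJC3 and -0.16 for STARD4. In lane 7 alone it was -0.32 for AKR1B1, 0.065 for TM7SF2 and -0.012 for SC5D. With DESeq2 it was -0.0027 for AKR1B1. With limma it was -0.12 for AKR1B1, 0.045 for XYLB, 0.17 for TM7SF2, 0.17 for NSDHL, 0.086 for DHCR7 and -0.021 for STARD4. With the library total as a covariate it was -0.13 for AKR1B1, 0.0053 for XYLB, 0.25 for PON3 and 0.082 for TM7SF2. With the library of 13418 counts kept it was -0.012 for ALB. Without the 5 libraries it was -0.28 for AKR1B1, 0.084 for XYLB, 0.21 for NSDHL, -0.10 for SC5D, 0.16 for DHCR7 and -0.030 for ALB. Without them and with DESeq2 it was -0.29 for AKR1B1, 0.085 for XYLB, 0.20 for NSDHL, -0.10 for SC5D, 0.16 for DHCR7, 0.030 for PON3 and -0.032 for ALB. Without them and with limma it was -0.15 for AKR1B1, 0.059 for XYLB, 0.23 for TM7SF2, 0.24 for NSDHL, -0.062 for SC5D, 0.15 for DHCR7, -0.044 for STARD4 and -0.024 for ALB. The other settings (DESeq2 size factors, both filters on low counts and no lane term) turned no sign.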
